A study of Mus musculus with 6 samples.

Results

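The insulin-like growth factor (IGF) ligands, receptors and binding proteins are described here by 10 genes of the 55471 in the deposited gene table, namely Igf1, Igf2, Igf1r, Igf2r and Igfbp2 to Igfbp7. They were taken by name, with no threshold on their levels, and all 10 passed the filter on low counts. Poly(A) RNA was sequenced from primary osteoblasts, the cells that build bone, which were isolated from calvarial bone of C57BL/6 mice at 3 days of age and cultured for 3 days. Of the 6 libraries, 3 came from wild type (WT) mice and 3 from triple conditional knockout (TCKO) mice, which carried Prx1-Cre and were homozygous for floxed alleles of all 3 Tet genes (Tet1fl/fl, Tet2fl/fl and Tet3fl/fl). The Tet genes encode dioxygenases that oxidise methylated cytosine, and the comparison of the genotypes asks which transcripts differ when they are removed. Prx1-Cre is active in the mesenchyme of the limb and part of the skull, so cells of other origin in a culture would not be expected to recombine the floxed alleles. Whether the WT mice carried floxed alleles, and how many animals went into a culture, is not given in the sources used here.

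IGF-I and IGF-II act on the type 1 IGF receptor, a tyrosine kinase that signals through the insulin receptor substrates, PI3K and AKT. The type 2 receptor binds IGF-II and carries it to lysosomes, and also sorts proteins tagged with mannose 6-phosphate. The secreted binding proteins hold the ligands outside the cell, and proteases that cut them set the ligands free. Osteoblasts make both ligands and most of the binding proteins, and bone matrix stores IGF bound to them.

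The libraries held 8019999 to 10177214 counts, of which at least 99.67% fell in the 13826 genes tested. Counts of Tet1 were 98, 131 and 115 for the WT libraries and 68, 51 and 51 for the TCKO libraries (log2 fold change -0.97 ± 0.16 (SE), adjusted p = 0.00648), whereas Tet2 (-0.14, adjusted p = 0.545) did not pass the test and Tet3 was higher (0.51, adjusted p = 0.00745). Gene totals do not show whether the floxed exons were removed. In both genotypes replicates 1 and 2 lay far closer to each other than to replicate 3. Chi-square per degree of freedom was 1.69 and 2.04 between them, against 16.5 to 23.3. TCKO replicate 3 held 4583 Xist reads, against 1 to 4 in the other 5 libraries. It alone held no Ddx3y reads, and this is the pattern of female cells. Each member's difference is therefore also given for the pair of replicate 3 and for the remaining libraries alone. In the pair of replicate 3, 1 library of each genotype, the WT library held 2 Xist and 936 Ddx3y reads. Genotype and this sex pattern therefore cannot be told apart within that pair, and a block on the replicate number does not separate them. The sources do not say whether the replicates came from separate animals, so the p-values measure only the spread between these libraries, which may be partly technical. Of the markers of the labelled cell type, Col1a1, Col1a2, Runx2, Sp7, Alpl and Ibsp were present in every library. Bglap, which encodes osteocalcin and marks mature osteoblasts, had at most 2 counts. Alpl had 143 to 475 counts in WT and 11 to 34 in TCKO (log2 fold change -3.54, edgeR adjusted p = 0.00743). The 10 osteoblast markers were by level mostly Col1a1 and Col1a2. They summed to 30192 to 32553 CPM (read counts scaled by library size) in WT and 14265 to 22411 CPM in TCKO. Of 6 tested, 3 were lower in TCKO, namely Runx2, Alpl and Col1a1 (5 with the replicate block).

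Among the members, 3 of 10 differed between the genotypes at an adjusted p under 0.05 (edgeR quasi-likelihood test, Benjamini-Hochberg over all 13826 genes), against 17.7% of all tested genes. These were Igfbp2, Igfbp4 and Igfbp5, and all 3 were lower in TCKO by more than 2-fold. Of all tested genes, 6.35% passed that threshold with a change of over 2-fold, and 3.19% did so in the lower direction. No member passed in the higher direction, where 2 had an unadjusted p under 0.05 and DESeq2 called 2, Igf2 and Igfbp6. With the replicate number as a block, 5 members passed, since Igf1 was then called lower and Igfbp6 higher. Both calls were lost, and 3 members passed, where the close replicates 1 and 2 were summed before blocking. The shares over all tested genes are from the main fit, and none is given here for the other fits. The median log2 fold change was -0.12 over the 10 members and -0.97 over the 6 binding proteins, beside 0.00 over all tested genes. The CPM of the genotypes did not overlap for 6 of 10 members (Igf2, Igf2r, Igfbp2, Igfbp4, Igfbp5 and Igfbp6), against 38.3% of all tested genes.

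**Figure D1:**
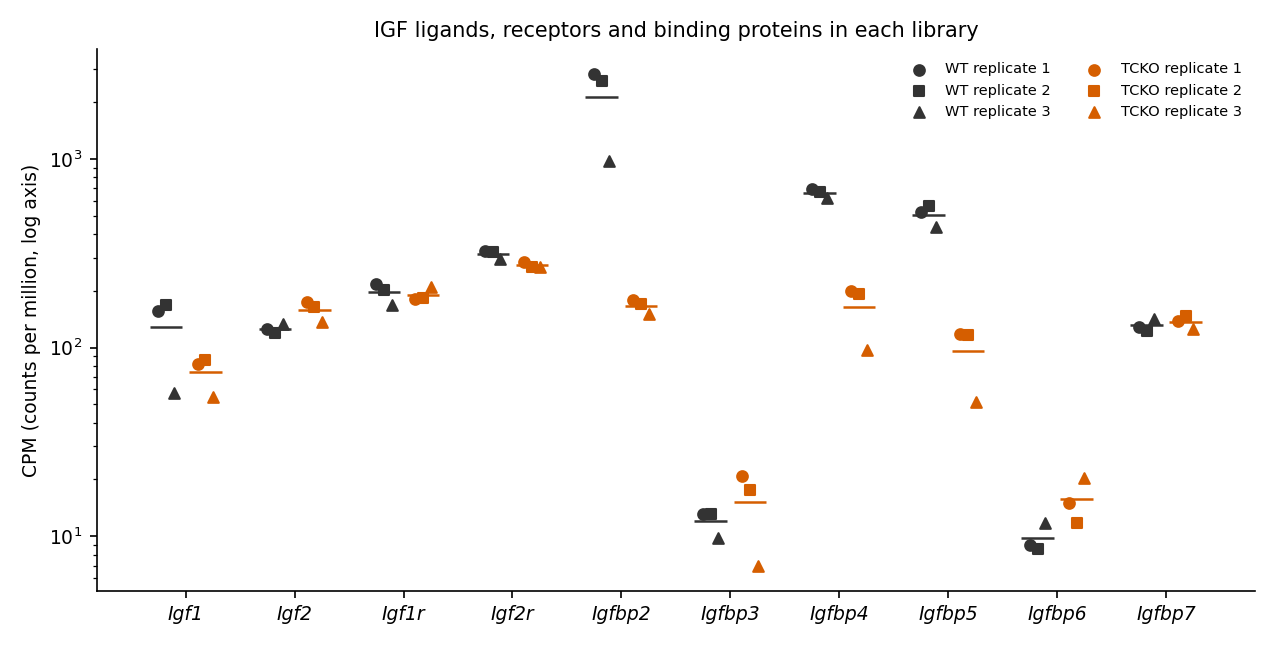
CPM of each member in each library on a log axis, with WT in black and TCKO in orange, replicates 1 to 3 as circles, squares and triangles, and the mean of 3 libraries as a line. Igfbp2, Igfbp4 and Igfbp5 lie lower in all 3 TCKO libraries than in any WT library, and WT replicate 3 lies apart from the other WT libraries for Igf1 and Igfbp2.

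The 3 binding proteins that fell are set beside Igfbp7, which did not pass the test, by the 250 bases before their RefSeq transcription start (GRCm38.p6). The sequences are shown because CG dinucleotides are where TET enzymes act, and each CG is in capitals. Igfbp2 is read from the plus strand of chr1:72824230-72824479, Igfbp4 from the plus strand of chr11:99040994-99041243, Igfbp5 from the minus strand of chr1:72874866-72875115 and Igfbp7 from the minus strand of chr5:77408046-77408295.
Igfbp2: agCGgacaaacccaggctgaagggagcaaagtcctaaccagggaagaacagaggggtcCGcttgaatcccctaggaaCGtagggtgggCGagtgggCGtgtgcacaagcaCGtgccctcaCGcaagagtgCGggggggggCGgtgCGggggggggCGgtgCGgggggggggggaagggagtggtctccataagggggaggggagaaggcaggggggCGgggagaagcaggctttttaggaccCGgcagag
Igfbp4: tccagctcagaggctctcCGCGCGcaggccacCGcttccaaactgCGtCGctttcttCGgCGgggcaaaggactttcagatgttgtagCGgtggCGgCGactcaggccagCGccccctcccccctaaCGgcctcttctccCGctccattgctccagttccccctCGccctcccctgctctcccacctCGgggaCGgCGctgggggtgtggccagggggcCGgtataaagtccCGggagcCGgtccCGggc
Igfbp5: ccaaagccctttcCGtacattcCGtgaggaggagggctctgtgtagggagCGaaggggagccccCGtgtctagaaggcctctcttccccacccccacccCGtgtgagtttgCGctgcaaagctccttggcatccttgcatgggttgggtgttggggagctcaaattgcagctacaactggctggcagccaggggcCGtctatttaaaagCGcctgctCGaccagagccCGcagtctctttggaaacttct
Igfbp7: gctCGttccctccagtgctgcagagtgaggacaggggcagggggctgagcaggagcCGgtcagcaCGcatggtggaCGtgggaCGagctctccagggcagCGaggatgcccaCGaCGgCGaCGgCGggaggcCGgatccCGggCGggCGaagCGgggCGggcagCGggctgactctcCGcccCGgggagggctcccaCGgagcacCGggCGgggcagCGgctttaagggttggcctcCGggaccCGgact
These stretches hold 14 CG for Igfbp2, 22 for Igfbp4, 10 for Igfbp5 and 26 for Igfbp7. Over the 300 bases from 250 before to 50 after the start, the counts were 18, 27, 10 and 33, and the median over 32851 RefSeq promoters was 7 (quartiles 3 and 20). Of the other members that did not pass, Igf1r, Igfbp3 and Igf2r held 48, 37 and 34, while Igf1 and Igfbp6 held 6 and 8. The part of CG number in the genotype differences was not tested. Igfbp2 has a further RefSeq start with 14 CG, and the 4 starts of Igf2 held 2 to 24. The letters TGTGGT, the core bound by RUNX factors, occurred on either strand in 1 of these windows, that of Igfbp3, and in 16.8% of all promoters. The letters TATAAA stood on either strand in the windows of Igfbp4 and Igfbp6 and in 13.6% of all promoters. Igfbp4 holds them on the strand of the gene, and Igfbp6 only in the reverse form TTTATA. The letters GGGCGG, a GC box, occurred on either strand 3 times at Igfbp2, 4 times at Igfbp7 and not at Igfbp4 or Igfbp5, and in 35.7% of all promoters. Methylation of these stretches was not analysed here.

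Igfbp2 (ENSMUSG00000039323; chromosome 1, 72824503 to 72852474, plus strand, GRCm38) encodes a binding protein that prefers IGF-II and carries an integrin-binding motif. Its level was 2822, 2602 and 972 CPM in WT and 178, 170 and 151 CPM in TCKO. Every TCKO library lay far below every WT library, and WT replicate 3 stood at 0.359 of the mean of the other 2 WT libraries. Igfbp2 was 12.8-fold lower in TCKO (log2 fold change -3.68 ± 0.38 (SE), adjusted p = 0.000833, 95% interval -4.56 to -2.80), the 19th lowest log2 fold change of the 13826 genes tested. The difference of log2 CPM was -3.96 within replicates 1 and 2 and -2.69 within replicate 3. Per kilobase of exon, Igfbp2 fell from 1154 ± 547 (SD, n = 3) to 90.0 ± 7.63 RPKM (CPM per kilobase), from rank 30 to rank 590 among all genes.

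Igfbp5 (ENSMUSG00000026185; chromosome 1, 72857932 to 72874884, minus strand) encodes a binding protein with strong affinity for bone matrix. It had 526, 561 and 434 CPM in WT and 118, 117 and 51.6 CPM in TCKO. The genotypes did not overlap, and TCKO replicate 3 was lower than the other TCKO libraries. The gene was 5.31-fold lower in TCKO (log2 fold change -2.41 ± 0.29, adjusted p = 0.00172), by -2.21 within replicates 1 and 2 and by -3.07 within replicate 3. Igfbp2 and Igfbp5 lie tail to tail, with 5457 bases between their 3' ends. The 3 other tested genes within 500 kb of either had a median log2 fold change of 0.10.

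Igfbp4 (ENSMUSG00000017493; chromosome 11, 99041244 to 99054392, plus strand) encodes a binding protein known mainly to inhibit IGF action and a substrate of the protease PAPP-A. Its level was 689, 666 and 618 CPM in WT and 201, 193 and 96.7 CPM in TCKO. As for Igfbp5, the genotypes did not overlap and TCKO replicate 3 was the lowest library. Igfbp4 was 4.03-fold lower in TCKO (log2 fold change -2.01 ± 0.25, adjusted p = 0.00187), by -1.78 within replicates 1 and 2 and by -2.68 within replicate 3. For Igfbp2, Igfbp4 and Igfbp5 the adjusted p stayed under 0.05 in the 16 other fits, and it was highest, at 0.0357, 0.0442 and 0.0432, where replicates 1 and 2 of each genotype were summed and counted as 1 library. Chondrocyte markers were also lower in TCKO, in all 7 of 8 listed that were tested. The list summed to 7466, 7074 and 8842 CPM in WT and to 1181, 1085 and 842 CPM in TCKO. Replicate 3 was the highest WT library for this sum but the lowest for Igfbp2, Igfbp4 and Igfbp5. In TCKO, replicate 3 was the lowest for the sum and for all 3 genes. Col2a1, the main collagen of cartilage, was lower by 3.13 on the log2 scale (adjusted p = 9.7e-05, edgeR). The part of these cells, and of the lower osteoblast markers, in the Igfbp results was not tested, and in bulk RNA fewer cells of a type and less RNA per cell cannot be told apart.

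Igfbp3, Igfbp6 and Igfbp7 did not pass the test. Igfbp3 (ENSMUSG00000020427; chromosome 11, 7206086 to 7213923, minus strand), whose product is the main IGF carrier of serum, had 13.1, 13.1 and 9.82 CPM in WT and 20.8, 17.7 and 6.95 CPM in TCKO. The genotypes overlapped, because TCKO replicate 3 was the lowest of all 6 libraries. Its log2 fold change was 0.33 ± 0.36 (adjusted p = 0.570), 0.55 within replicates 1 and 2 and -0.50 within replicate 3. Without TCKO replicate 3 it was 0.68 with an adjusted p of 0.0246, and over all fits the adjusted p ran from 0.0246 to 0.973.

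Igfbp6 (ENSMUSG00000023046; chromosome 15, 102144362 to 102149511, plus strand) encodes the binding protein with the most marked preference for IGF-II. It had 8.96, 8.58 and 11.8 CPM in WT and 14.95, 11.8 and 20.3 CPM in TCKO. The TCKO libraries were all higher, but TCKO replicate 2 lay next to WT replicate 3, with 95 and 97 counts. The log2 fold change was 0.69 ± 0.23 (adjusted p = 0.0733), 0.60 within replicates 1 and 2 and 0.79 within replicate 3. With the replicate block it was 0.67 with an adjusted p of 0.0135, but this rose to 0.0649 where replicates 1 and 2 were also summed. Without WT replicate 3 the adjusted p was 0.0485, and over all fits it ran from 0.0135 to 0.262.

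Igfbp7 (ENSMUSG00000036256; chromosome 5, 77349240 to 77408041, minus strand) encodes a related protein of low affinity for the IGFs. Its level was 129, 122 and 142 CPM in WT and 138, 147 and 125 CPM in TCKO. The ranges overlapped almost fully, and the log2 fold change was 0.06 ± 0.09 (adjusted p = 0.690, 95% interval -0.15 to 0.27). Polr2b, on the other strand, shares 7.03% of the exon bases of Igfbp7 and had 460 to 579 counts, and the strand setting of the counting is not stated. Endothelial and smooth muscle cells also make Igfbp7. Of 7 endothelial markers Kdr alone was tested and was higher in TCKO (0.363 to 1.58 CPM in WT and 33.1 to 93.9 CPM in TCKO), while Pecam1, Cdh5, Tek, Emcn, Cldn5 and Tie1 were at most 0.969 CPM in every library. Of 5 smooth muscle and pericyte markers, Cnn1 and Tagln were higher, and the list, most of it Acta2, summed to 1867 to 2167 CPM in WT and 2333 to 2844 CPM in TCKO. Their part in the Igfbp7 values was not tested.

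**Figure D2:**
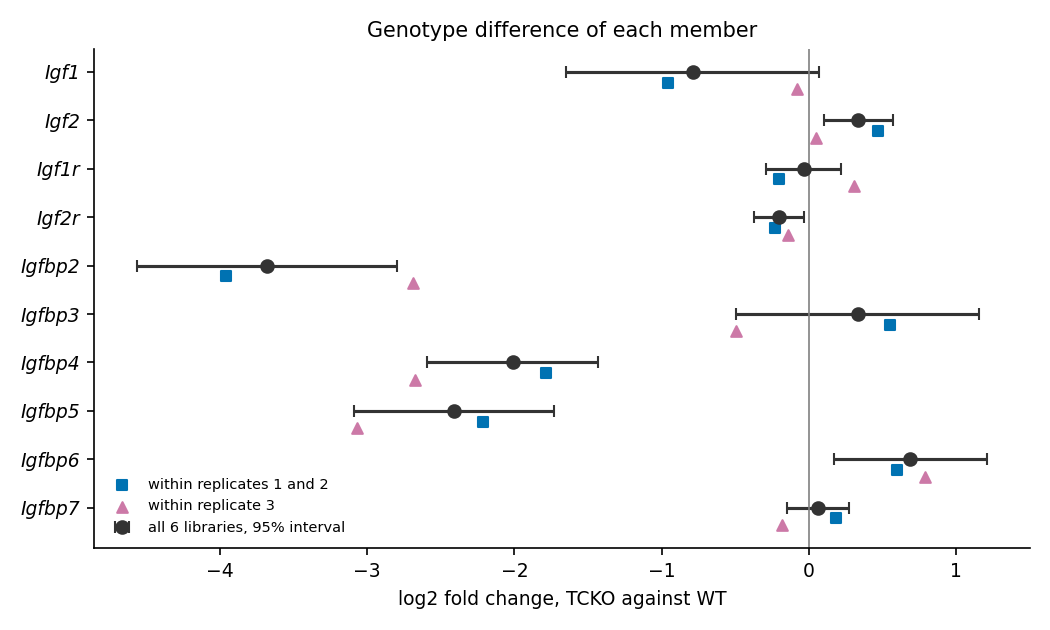
Log2 fold change of TCKO against WT for each member, with the edgeR estimate over 6 libraries and its 95% interval in black, the difference within replicates 1 and 2 as blue squares and that within replicate 3 as pink triangles. Igfbp2, Igfbp4 and Igfbp5 lie below 0 within both sets of replicates, whereas the values for Igf1r, Igfbp3 and Igfbp7 differ in sign between them.

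The makeup of the binding protein transcripts differed between the genotypes. The summed level of the 6 genes was 1890, 1766 and 870 RPKM in WT and 296, 293 and 236 RPKM in TCKO. Each TCKO library was below each WT library, the ratio of the means was 5.49, and the exact permutation test on the log2 sums gave p = 0.1 (two-sided), the smallest that 3 against 3 libraries allow. Igfbp2 supplied 80.8%, 79.8% and 60.5% of this sum in WT and 32.6%, 31.4% and 34.6% in TCKO. Igfbp7, whose own level did not pass the test, supplied 8.29% ± 4.53 (SD, n = 3) in WT and 41.3% ± 2.61 in TCKO. The shares of Igfbp4 (10.96% ± 4.45 and 13.2% ± 3.38) and Igfbp5 (6.08% ± 1.96 and 5.64% ± 1.73) overlapped between the genotypes, although the levels of both genes were lower in TCKO.

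**Figure D3:**
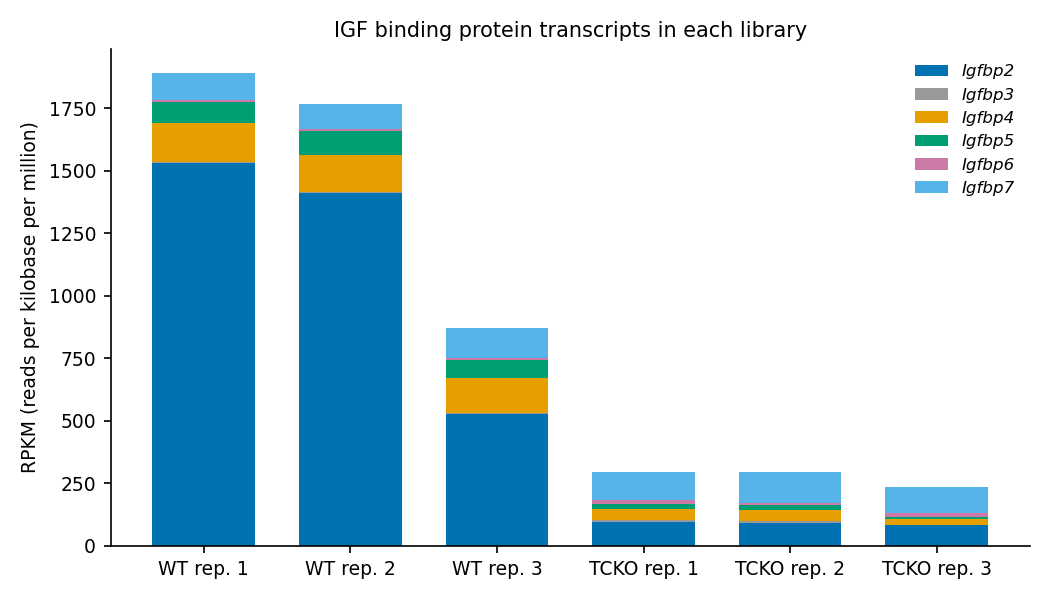
Stacked RPKM of the 6 IGF binding protein genes in each library, from 0. Igfbp2 makes up 60.5% to 80.8% of the bar in the 3 WT libraries and 31.4% to 34.6% in the 3 TCKO libraries, where Igfbp7 takes 38.6% to 43.8%.

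Of the ligands, Igf1 (ENSMUSG00000020053; chromosome 10, 87858265 to 87937042, plus strand), the growth hormone target that also acts locally in bone, had 157, 169 and 57.6 CPM in WT and 81.6, 86.0 and 54.5 CPM in TCKO. The genotypes overlapped because WT replicate 3 was below TCKO replicates 1 and 2. The log2 fold change was -0.79 ± 0.37 (adjusted p = 0.185, 95% interval -1.65 to 0.07), with -0.96 within replicates 1 and 2 and -0.08 within replicate 3. Blocking on the replicate number gave -0.69 with an adjusted p of 0.0304, but -0.55 with one of 0.208 where replicates 1 and 2 were summed. Leaving out WT replicate 3 gave -1.14 with an adjusted p of 0.00643, within a range over all fits of 0.00643 to 0.540.

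Macrophages also make IGF-I. The 11 markers summed to 795, 806 and 416 CPM in WT and 562, 600 and 167 CPM in TCKO. Lyz2 made up 74.9% to 81.3% of this sum. As with Igf1, WT replicate 3 lay below TCKO replicates 1 and 2 and TCKO replicate 3 was the lowest library for the sum and for 6 of the 11 markers (Lyz2, C1qa, C1qb, C1qc, Mrc1 and Cd68). The other markers did not follow that order, and in WT replicate 3 Adgre1, Csf1r, Tyrobp and Itgam lay above TCKO replicates 1 and 2. For the 10 markers other than Adgre1, as for Igf1, WT replicate 3 was the lowest WT library and TCKO replicate 3 the lowest of all 6. All 11 had a lower mean in TCKO, and 3 passed the test in the main fit (11 with the replicate block). The defining markers Adgre1, Csf1r and Ptprc were at 0 in no library, with 42 to 201, 76 to 314 and 8 to 40 counts, and Adgre1 was highest in WT replicate 3. The part of macrophages in the Igf1 values was not tested.

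**Figure D4:**
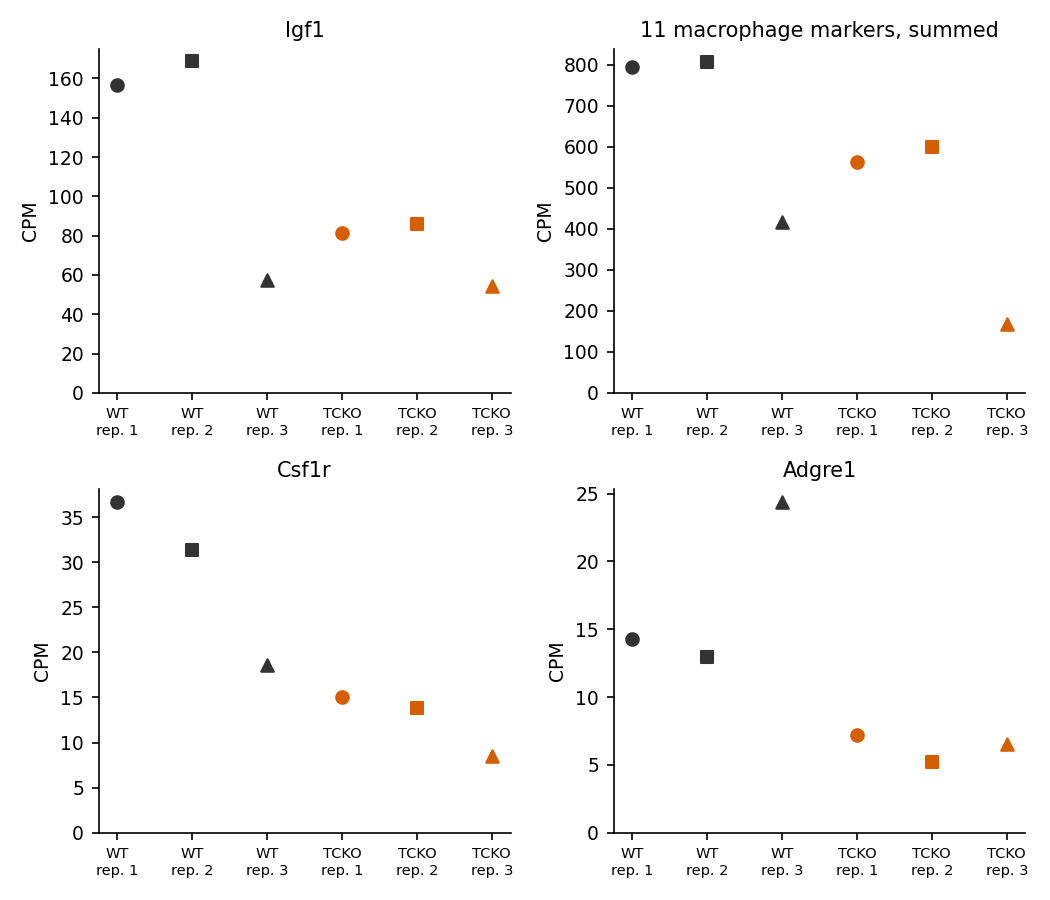
CPM of Igf1, of 11 macrophage markers summed (74.9% to 81.3% of it Lyz2), and of the markers Csf1r and Adgre1 in each library, from 0, with WT in black and TCKO in orange. WT replicate 3 lies below TCKO replicates 1 and 2 for Igf1 and the sum but above them for Csf1r and Adgre1. For Igf1, the sum and Csf1r, replicate 3 is the lowest library of each genotype.

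Igf2 (ENSMUSG00000048583; chromosome 7, 142650766 to 142666816, minus strand), the imprinted ligand that is prominent in fetal growth, had 126, 119 and 133 CPM in WT and 175, 165 and 137 CPM in TCKO. The TCKO libraries were all higher, and TCKO replicate 3 lay close to WT replicate 3. The log2 fold change was 0.33 ± 0.10 (adjusted p = 0.0590), with 0.47 within replicates 1 and 2 and 0.04 within replicate 3. DESeq2 gave an adjusted p of 0.0492 and the fit without TCKO replicate 3 one of 0.00658, and over all fits it ran from 0.00658 to 0.407. The annotated gene Gm49394, on the same strand, covers 62.8% of the exon bases of Igf2 and had 0 counts in every library, so the level of Igf2 is a lower bound if reads shared by both genes were dropped, which is not stated.

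The level of both ligands together, per kilobase, was 34.9 ± 5.07 RPKM in WT and 35.2 ± 5.02 RPKM in TCKO (SD, n = 3, exact permutation p = 0.7). Igf1 stood at 0.720, 0.819 and 0.250 times the level of Igf2 in WT and at 0.270, 0.302 and 0.229 times in TCKO. WT replicate 3 lay within the TCKO range, and the log2 ratio of Igf1 to Igf2 differed by -0.99 (exact permutation test, p = 0.3), by -1.43 within replicates 1 and 2 and by -0.12 within replicate 3. Summed binding protein level exceeded summed ligand level by 50.04, 46.6 and 29.9 times in WT and by 7.62, 7.83 and 7.998 times in TCKO. The TCKO libraries were close together and all below WT. The log2 ratio was 5.36 ± 0.40 in WT and 2.97 ± 0.03 in TCKO (SD, n = 3), a difference of -2.40 with the smallest exact permutation p that these groups allow, 0.1. Without Igfbp2 the difference was -0.96. These ratios describe transcripts and not protein. The ligand sums and all ratios with Igf2 rest on its counted level, which may be a lower bound, so they hold only for the counts as deposited.

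Of the receptors, Igf1r (ENSMUSG00000005533; chromosome 7, 67952827 to 68233668, plus strand), which encodes the signalling type 1 receptor, had 217, 202 and 169 CPM in WT and 182, 182 and 209 CPM in TCKO. The ranges overlapped, and replicate 3 was the lowest WT and the highest TCKO library. The log2 fold change was -0.04 ± 0.11 (adjusted p = 0.849, 95% interval -0.29 to 0.22), and its sign turned between replicates 1 and 2 (-0.20) and replicate 3 (0.31).

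Igf2r (ENSMUSG00000023830; chromosome 17, 12682406 to 12769664, minus strand), the imprinted gene of the type 2 receptor, had 325, 322 and 295 CPM in WT and 283, 269 and 268 CPM in TCKO. All TCKO libraries were below all WT libraries by a small step. The log2 fold change was -0.20 ± 0.07 (adjusted p = 0.0990), -0.23 within replicates 1 and 2 and -0.14 within replicate 3. Without WT replicate 3 the adjusted p was 0.0372, in a range of 0.0372 to 0.487 over all fits.

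Per kilobase, the order of mean levels in WT was Igfbp2, Igfbp4, Igfbp7, Igfbp5, Igf2r, Igf2, Igf1, Igf1r, Igfbp6 and Igfbp3. The ranges over 3 libraries overlapped between neighbours only for Igf1 and Igf1r and for Igf1r and Igfbp6. In TCKO the order was Igfbp7, Igfbp2, Igfbp4, Igf2r, Igf2, Igfbp5, Igfbp6, Igf1r, Igf1 and Igfbp3. Neighbours overlapped there from Igfbp4 to Igf2, from Igfbp5 to Igf1r and for Igf1 and Igfbp3. Igfbp4 thus passed from 149 ± 8.12 RPKM, far above Igf2r (33.8 ± 1.80), to 37.0 ± 13.1 RPKM, with a range of 21.9 to 45.4 RPKM that enclosed that of Igf2r (28.8 to 30.4). The place of Igf2 in both orders rests on its counted level, which may be a lower bound.

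Proteases that cut the binding proteins moved in both directions. Of 10 listed proteases and inhibitors, all tested, 1 was lower and 5 were higher in TCKO. The share called over all tested genes was 17.7%, and the list's median log2 fold change was 0.62. Pappa2, a protease of Igfbp3 and Igfbp5 products, fell from 525 ± 153 to 48.5 ± 14.3 CPM (SD, n = 3; log2 fold change -3.44 ± 0.30, adjusted p = 0.000419). Its relative Pappa, which cuts the Igfbp4 product, rose from 235 ± 25.7 to 680 ± 50.9 CPM (1.53 ± 0.11, adjusted p = 0.000142). Both differences were nearly the same within replicates 1 and 2 (-3.43 and 1.51) and within replicate 3 (-3.45 and 1.60). Plat, the tissue plasminogen activator, rose from 42.1 ± 1.78 to 263 ± 108 CPM (2.64 ± 0.31, adjusted p = 0.00140). Adam12 (1.46), Stc1 (1.22), a stanniocalcin that inhibits PAPP-A, and Plau (0.66), the urokinase, were also higher, with adjusted p of 0.0172, 0.0375 and 0.0364. These last 3 did not pass when WT replicate 1 was left out (0.0744, 0.130 and 0.133), and the list's count was then 3, as it was without WT replicate 2 or TCKO replicate 2. Stc1 had only 8 to 37 counts, and DESeq2 did not call it (adjusted p = 0.0504). Stc2, the other stanniocalcin of the list, was at 18.2 CPM in WT and 17.2 CPM in TCKO and did not pass (-0.09, edgeR adjusted p = 0.874).

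Other proteins with an IGFBP domain gave 1 lower and 1 higher gene of 10 tested, close to the 17.7% of all tested genes. Their median log2 fold change was -0.26. Ccn5 was lower (-1.70 ± 0.36, adjusted p = 0.0155) and Crim1 higher (0.79 ± 0.17, adjusted p = 0.0180). With the replicate block the counts were 4 lower and 1 higher, without WT replicate 1 or WT replicate 2 no gene of this list passed, and without TCKO replicate 3 the count was 6. Of 7 other IGF and insulin family genes, Insr, the insulin receptor, was the only one tested (-0.16 ± 0.13, adjusted p = 0.419). It passed when WT replicate 3 was left out, and Igfbp1 had no counts. Of 4 cell surface or intracellular partners of the binding proteins, Tmem219, a receptor for the Igfbp3 product, was lower (-0.76 ± 0.14, adjusted p = 0.00826), as was Fhl2 (-0.43 ± 0.07, adjusted p = 0.00628).

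Of 33 tested genes that carry the IGF1R signal, 4 were lower and 3 higher in TCKO, a share close to the 17.7% of all tested genes, and the median log2 fold change was 0.03. Foxo1, a transcription factor that AKT holds out of the nucleus, fell from 50.1 ± 4.27 to 23.4 ± 0.49 CPM (log2 fold change -1.10 ± 0.09, adjusted p = 0.000339). Pik3r1, a regulatory subunit of PI3K, was also lower (-0.35, adjusted p = 0.0221). Grb14, an adaptor that inhibits the receptor (0.92, adjusted p = 0.00742), Rictor, a core part of mTORC2 (0.60, adjusted p = 0.0207), and Irs2, a receptor substrate (0.48, adjusted p = 0.0426), were higher. Of these genes, Pik3r1, Rictor and Irs2 did not pass without WT replicate 2, TCKO replicate 1 or TCKO replicate 2 (Irs2 also without TCKO replicate 3). Each of those first 3 omissions brought the list's count to 3, and without WT replicate 3 it was 12. Of 12 tested FOXO targets, Irs2 and Bcl6 were higher and the median was 0.00. No FOXO target passed in the lower direction, where 4 had an unadjusted p under 0.05, DESeq2 called 1 and the replicate block 3. The count of FOXO targets was 1 without WT replicate 2, TCKO replicate 1 or TCKO replicate 2, 4 without TCKO replicate 3 and 7 without WT replicate 3. The growth hormone axis, which drives Igf1 in liver, had no gene of 6 past the edgeR threshold, with 2 at an unadjusted p under 0.05 and 1 called by DESeq2, and also 1 by edgeR without WT replicate 3 or TCKO replicate 3. Ghr, the receptor, stood at -0.53 ± 0.17 (adjusted p = 0.0759).

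Of 9 tested genes that act on Igf2 RNA or its locus, 5 were higher in TCKO. None was lower at either the adjusted or the unadjusted threshold or by DESeq2. Over all tested genes, 17.7% were called in either direction. With replicates 1 and 2 summed, 1 gene of the list still passed. Hmga2, known to raise Igf2 transcription with Plag1, rose from 118 ± 39.4 to 446 ± 111 CPM (log2 fold change 1.91 ± 0.25, adjusted p = 0.00235). The RNA-binding proteins Igf2bp2 (1.04), Igf2bp3 (0.70) and Igf2bp1 (0.56) were higher, with adjusted p of 0.000655, 0.00900 and 0.0269. H19, the noncoding RNA that shares an imprinting control region with Igf2, was higher (0.67 ± 0.17, adjusted p = 0.0322), by 0.94 within replicates 1 and 2 and by 0.08 within replicate 3. Its count per Igf2 count was 14.2, 15.2 and 16.6 in WT and 19.9, 21.02 and 17.0 in TCKO. H19 and Igf2bp1 did not pass without WT replicate 1 (WT replicate 2, TCKO replicate 1 or TCKO replicate 2 likewise), and the list's count was then 3. Of 5 genes of mannose 6-phosphate sorting, which loads the ligands of Igf2r, Gnptab was higher (0.56 ± 0.10, adjusted p = 0.00706) and Nagpa lower (-0.56 ± 0.14, adjusted p = 0.0301). Nagpa did not pass in 5 of the 6 fits that left out a library, with an adjusted p of up to 0.111 without TCKO replicate 1.

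**Figure D5:**
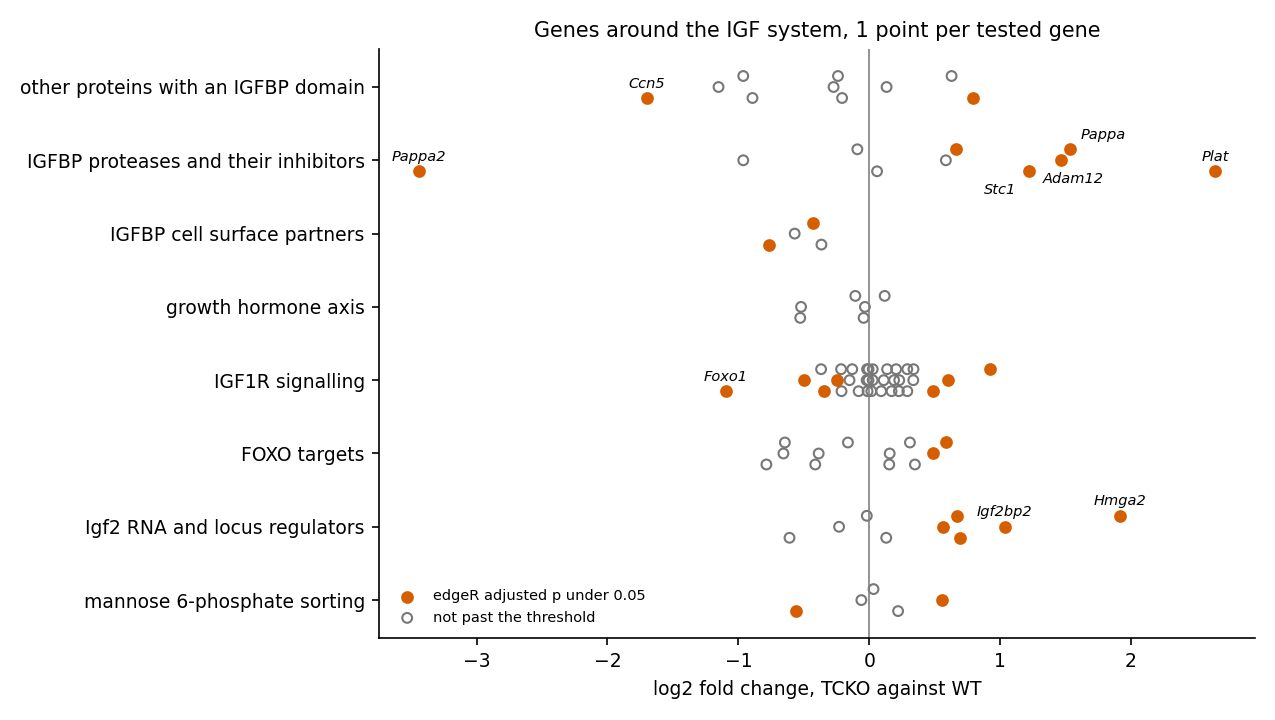
Log2 fold change of TCKO against WT for each tested gene of 8 lists around the IGF system, 1 point per gene, filled where the edgeR adjusted p was under 0.05 and named where the change was also over 2-fold. Pappa2 lies at -3.44 and Plat at 2.64, while most genes of IGF1R signalling lie near 0.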

How the data were processed

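Poly(A) RNA libraries, 3 WT and 3 TCKO, were made by the authors from cultured osteoblasts with a directional kit (NEBNext Ultra II). Whether the 3 libraries of a genotype came from separate cultures is not given. According to the study's methods and the submitters' processing notes, reads were aligned with STAR 2.7.0e to GRCm38 (Ensembl release 99) and counted per gene with featureCounts 2.0.0. The deposited values were raw counts per gene with the exon length of each gene. The strand setting, and how reads shared by genes were treated, are not given in the sources used here. Symbols came from Ensembl identifiers through GENCODE M21 and an accompanying name table (99.4% of 55471 matched).

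Counts were tested with edgeR 4.0.16 in R 4.3.3 (TMM factors, filterByExpr, quasi-likelihood F test, Benjamini-Hochberg over 13826 genes), WT against TCKO without covariates, with an adjusted p of 0.05 as threshold. DESeq2 1.42.0, which the study used, was 1 of 16 alternative fits. CPM used TMM-scaled library sizes, and RPKM is CPM per kilobase of the deposited exon length. A count of 3 in a library was taken as the floor, 0.295 to 0.374 CPM by library. Ratios were tested over libraries by exact permutation, two-sided. The scripts were tested on simulated counts. Correlations of same-numbered deviations from the genotype means were 0.204, 0.214 and 0.347 over the tested genes for replicates 1, 2 and 3. The numbers were taken as pairs. The correlations set only replicate 3 apart, which stood at -0.282 to -0.249 with unlike numbers. WT and TCKO replicates 1 and 2 with unlike numbers correlated as much as those with like numbers (0.188 and 0.225). Pairing among them rests on the sample numbers alone. Promoter sequences were from RefSeq, and all 10 members matched. The named genes were the members, Tet1 to Tet3, overlapping genes, and at most the 6 with the largest change among called genes of each list, together with the receptors Insr and Ghr, Igfbp1, Stc2, listed cell type markers and Xist and Ddx3y, which were added after their values were seen. 1 gene that the rule names is not reported here. The members and lists were chosen with earlier results of these data known.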

Additional observations from a re-analysis of the deposited data

How the results depend on the processing

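Over 16 alternative fits Igfbp2, Igfbp4 and Igfbp5 kept their direction and stayed past the threshold, and Igfbp7 kept its direction and did not pass. The count of members past the threshold, 3 in the main fit, was 6 without a low-count filter, 5 with DESeq2, 5 with the replicate block and 3 to 6 with 1 library left out (6 without WT replicate 3, 5 without TCKO replicate 3). The share of all tested genes called, 17.7%, is from the main fit. Counts of members in the other fits have no such share beside them and are not read as a result about the members. Without a filter, Igf1 (-0.79), Igf2 (0.34) and Igfbp6 (0.69) passed, as did Igf2 (0.34) and Igfbp6 (0.69) with DESeq2. With the replicate block, Igf1 (-0.69) and Igfbp6 (0.67) passed, and the block changed no other call of a member. Both were lost with replicates 1 and 2 summed and the replicate block (adjusted p = 0.208 and 0.0649), which left 3 members. Igf1r, which passed in no fit, turned to 0.044 without WT replicate 1, to 0.0496 with replicates 1 and 2 summed and to 0.053 with these summed and the replicate block. With 1 library left out, log2 fold changes ran from -1.14 to -0.53 for Igf1, 0.26 to 0.43 for Igf2, -0.13 to 0.044 for Igf1r, -0.24 to -0.18 for Igf2r, 0.028 to 0.68 for Igfbp3 and 0.46 to 0.85 for Igfbp6. Of the related genes, 25 passed in the main fit, 13 to 37 with 1 library left out, 5 with replicates 1 and 2 summed and 15 with these summed and the replicate block. The tested number of each list is given above. Outside the main fit these counts likewise have no share over all tested genes beside them. Summing leaves 2 libraries per genotype. The cause of the other shifts was not tested. The within-replicate values of the binding protein to ligand ratio, -2.64 in replicates 1 and 2 and -1.90 in replicate 3, were chosen after seeing the data. Igfbp3 and Igfbp6, at 62 to 182 counts, had the lowest counts of the members.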
